A study of Mus musculus with 12 samples.

Results

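The genes described here encode the MHC class II presentation machinery and were taken as a list of 7 by name: H2-Aa, H2-Ab1 and H2-Eb1, which encode class II chains, Cd74, which encodes the invariant chain, H2-DMa and H2-DMb1, which encode the chains of the peptide editor H2-M, and Ciita, which encodes the class II transactivator. Their levels were read from a microarray series of mouse granulopoiesis, the formation of granulocytes in bone marrow. Of the 7 genes, 6 had an array row of their own, among 19937 genes tested. H2-DMb1 was present only on a row shared with its neighbour H2-DMb2, so no value is given for it.

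Class II molecules sit on the surface of antigen-presenting cells and show peptides from ingested proteins to CD4+ T cells. The invariant chain occupies the groove of a newly made class II molecule and guides it to endosomes, where proteases cut it down to a short fragment that H2-M exchanges for other peptides. Ciita, which does not bind DNA itself, docks on factors bound at class II promoters, and its presence sets whether most of these genes are transcribed. Dendritic cells, B cells and macrophages are the classical class II-positive cells of the marrow, and neutrophils at rest carry little of it.

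The 4 populations were LSK cells, promyelocytes, myelocytes and granulocytes, with 3 arrays each and 12 in all. They were sorted by flow cytometry from femur, tibia and spine marrow of C57BL/6 mice, without treatment or culture, and all share that genotype. LSK cells, a gate that holds stem and early progenitor cells, were positive for Sca1 and cKit and negative for B220, Ter119, CD3, Gr-1 and CD11b. The 3 granulocytic populations were selected by Gr-1, cKit, CD34 and CD16/32 after staining for lineage antigens that included B220, CD3 and Sca1. Neither panel held an antibody to class II, to CD11c or to the IgE receptor. The labels call the 3 arrays of a population biological replicates but name no animals, and the p-values therefore cover only the spread among arrays, some of which may be technical.

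Values are log2 array intensities after RMA normalization, so a difference of 1 is a fold of 2. A gene is called higher or lower where its limma p, adjusted over all 19937 genes by the method of Benjamini and Hochberg, was under 0.05 and its fold at least 2. As a guide to dim signal, 95% of 1190 olfactory and vomeronasal receptor genes averaged at or under 4.51 over the arrays. Late granulocytic and LSK markers followed the labels. The summed linear signal of 8 late granulocytic genes was 1292 to 1703 in LSK cells, 1066 to 2781 in promyelocytes, 40525 to 44971 in myelocytes and 41966 to 48684 in granulocytes. A list of 6 LSK genes summed to 5429 to 7241 in LSK cells, 1743 to 3697 in promyelocytes, 359 to 460 in myelocytes and 257 to 319 in granulocytes. The 5 promyelocyte markers separated less clearly from LSK cells, with sums of 8219, 11771 and 2494 on the LSK arrays and 14507 to 21608 in promyelocytes, and 3 of them were called higher in promyelocytes. These are bulk samples, in which fewer cells of a type and less RNA per cell cannot be told apart.

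The H2 genes of the list lie together on chromosome 17, in an order of 12 genes in the RefSeq annotation of GRCm38.p6 that runs H2-DMa, H2-DMb2, H2-DMb1, Psmb9, Tap1, Psmb8, Tap2, H2-Ob, Gm20506, H2-Ab1, H2-Aa and H2-Eb1. Class II promoters are known for a conserved order of boxes, the X1 box bound by the RFX factors, the X2 box bound by CREB and the Y box bound by NF-Y, on which Ciita docks. A search for GNAAC, then TGANG within 6 bases, then ATTGG 10 to 30 bases further on, on either strand, was run over windows of 250 bases before to 50 after each RefSeq start, with the letters chosen from this known order. Of 32851 windows, 46 (0.14%) held the 3 boxes, whereas ATTGG alone on either strand was in 37.4%. Among the 4 listed genes with a window, H2-Aa, H2-Eb1 and H2-DMb1 held the boxes, and the H2-DMa windows did not hold these letters. Of the related genes, H2-Ob and H2-Eb2 held them, and H2-Oa and H2-DMb2 did not. The 150 bases before the start are shown for H2-Aa and H2-Eb1, whose levels moved together over the arrays, and for H2-Ob, whose levels followed another course. Each reads 5′ to 3′ on the gene's strand, from RefSeq on GRCm38.p6, with the 3 boxes in capitals. The H2-Aa stretch is chr17:34287824-34287973 on the minus strand with boxes 81 to 44 bases before the start. The H2-Eb1 stretch is chr17:34305717-34305866 on the plus strand with boxes 91 to 55 bases before the start. The H2-Ob stretch is chr17:34238755-34238904 on the plus strand with boxes 87 to 53 bases before the start. The capitals mark letters that matched the search. In H2-Eb1 the first and second matches adjoin, with a gap of 0, and whether its TGATG is a separate X2 box was not tested.
H2-Aa: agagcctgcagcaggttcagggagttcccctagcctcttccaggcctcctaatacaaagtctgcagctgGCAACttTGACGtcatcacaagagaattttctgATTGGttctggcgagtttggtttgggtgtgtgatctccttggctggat
H2-Eb1: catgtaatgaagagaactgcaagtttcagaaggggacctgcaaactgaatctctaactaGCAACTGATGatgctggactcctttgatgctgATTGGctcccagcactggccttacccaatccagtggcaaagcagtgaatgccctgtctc
H2-Ob: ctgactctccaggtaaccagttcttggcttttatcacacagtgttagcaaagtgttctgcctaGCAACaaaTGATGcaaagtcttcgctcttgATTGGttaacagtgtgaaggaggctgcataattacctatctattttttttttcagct

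Cd74 and Ciita lie elsewhere, on chromosomes 18 and 16. Over the 4 stages the class II genes followed 3 courses. The 3 chain genes and Cd74 were high in LSK cells, lower on average in promyelocytes, high again on 2 of 3 myelocyte arrays and low in granulocytes. H2-DMa was level between LSK cells and promyelocytes and lower at each later stage. Ciita stayed near the dim level throughout. By the moderated F test 5 of the 6 genes differed among the stages, against 54% of all genes, with adjusted p of 1.91e-07 for H2-DMa, 0.00286 for Cd74, 0.0032 for H2-Ab1, 0.00683 for H2-Aa and 0.0233 for H2-Eb1, and of 0.151 for Ciita. Of the 36 differences that the 6 genes and 6 pairs of stages give, 16 were called. Over all genes, 2.75% to 16.5% were called lower and 1.61% to 10.1% higher, depending on the pair.

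**Figure D1:**
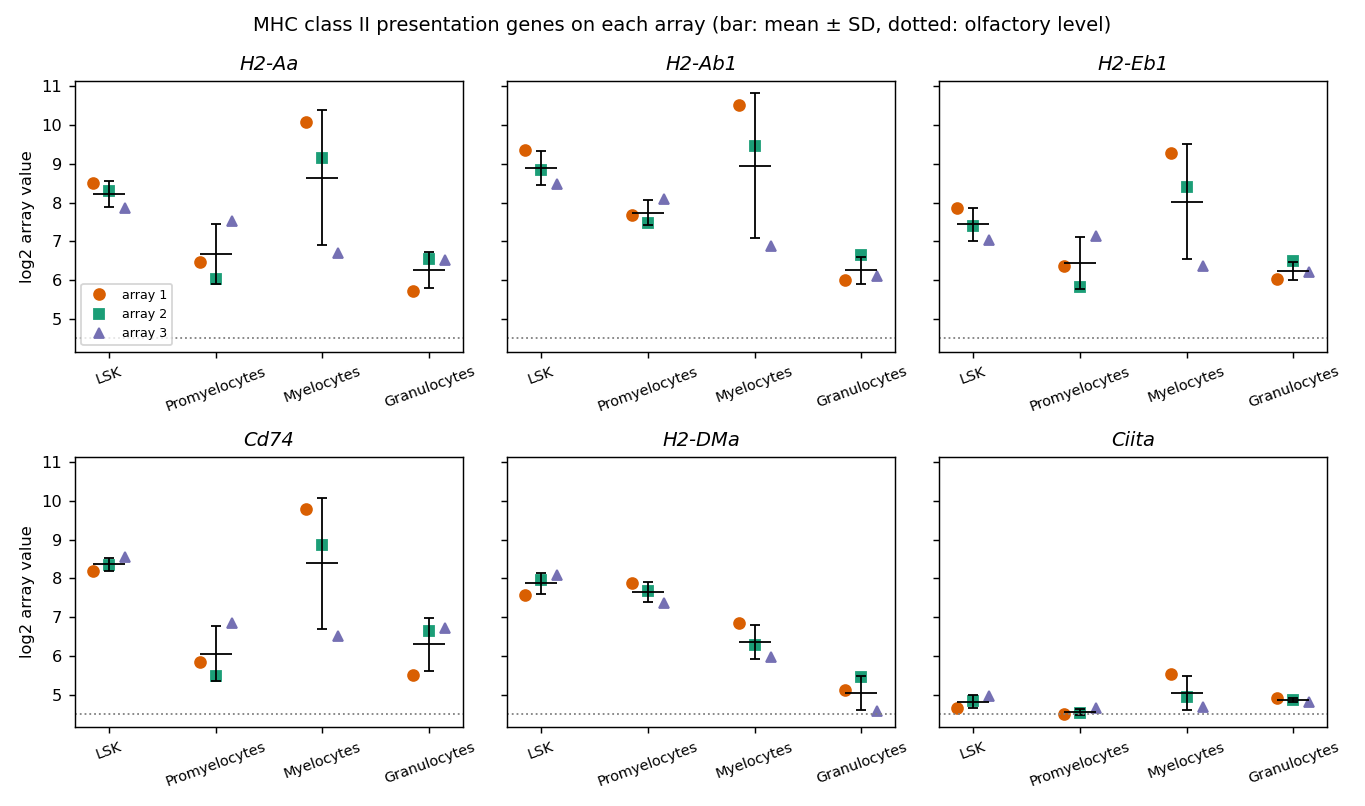
Log2 array values of the 6 measured class II presentation genes on each of the 12 arrays, by stage, with symbols for array number, bars for mean ± SD (n = 3) and a dotted line at 4.51, the olfactory level. The chain genes and Cd74 are widely spread in myelocytes, with array 1 highest and array 3 lowest, whereas H2-DMa steps down and Ciita stays close to the line.

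H2-Aa encodes the alpha chain of the I-A molecule. Its log2 values were 8.51, 8.30 and 7.86 on LSK arrays 1, 2 and 3, 6.47, 6.03 and 7.54 on the promyelocyte arrays, 10.07, 9.15 and 6.71 on the myelocyte arrays, and 5.72, 6.55 and 6.51 on the granulocyte arrays. Every LSK value lay above every promyelocyte and granulocyte value, and the myelocyte arrays lay on both sides of the LSK cells. The means were 8.22 ± 0.33 in LSK cells, 6.68 ± 0.77 in promyelocytes, 8.65 ± 1.74 in myelocytes and 6.26 ± 0.47 in granulocytes (SD, n = 3 each). In this order myelocytes and LSK cells did not differ beyond their spread, nor did promyelocytes and granulocytes.

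H2-Ab1 encodes the beta chain of I-A. Its values were 9.36, 8.84 and 8.47 in LSK cells, 7.67, 7.46 and 8.10 in promyelocytes, 10.52, 9.45 and 6.89 in myelocytes, and 6.00, 6.66 and 6.10 in granulocytes. It was the one of these 4 genes whose granulocyte values all lay below its promyelocyte values. The means were 8.89 ± 0.45 in LSK cells, 7.74 ± 0.33 in promyelocytes, 8.95 ± 1.87 in myelocytes and 6.25 ± 0.36 in granulocytes (SD, n = 3 each).

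H2-Eb1 encodes the beta chain of I-E, the other mouse class II molecule, whose alpha chain gene H2-Ea is defective in the C57BL/6 strain. Its values were 7.87, 7.41 and 7.03 in LSK cells, 6.36, 5.82 and 7.14 in promyelocytes, 9.27, 8.41 and 6.38 in myelocytes, and 6.03, 6.48 and 6.21 in granulocytes. Promyelocyte array 3 reached into the LSK range, and myelocyte array 3 lay within the granulocyte range. The means were 7.44 ± 0.42 in LSK cells, 6.44 ± 0.66 in promyelocytes, 8.02 ± 1.49 in myelocytes and 6.24 ± 0.23 in granulocytes (SD, n = 3 each). H2-Ea averaged at or under the dim level at every stage.

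Cd74 encodes the invariant chain. Its values were 8.20, 8.33 and 8.54 in LSK cells, 5.84, 5.47 and 6.85 in promyelocytes, 9.78, 8.86 and 6.51 in myelocytes, and 5.51, 6.63 and 6.73 in granulocytes. The LSK arrays were the most alike, and array 3 was again the highest of the promyelocytes and the lowest of the myelocytes. The means were 8.36 ± 0.17 in LSK cells, 6.06 ± 0.71 in promyelocytes, 8.38 ± 1.69 in myelocytes and 6.29 ± 0.68 in granulocytes (SD, n = 3 each).

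H2-DMa encodes the alpha chain of H2-M. Its values were 7.56, 7.96 and 8.09 in LSK cells, 7.89, 7.67 and 7.38 in promyelocytes, 6.83, 6.27 and 5.96 in myelocytes, and 5.11, 5.45 and 4.56 in granulocytes. The LSK and promyelocyte values overlapped, and from there each later stage lay wholly below the one before. The means were 7.87 ± 0.28 in LSK cells, 7.65 ± 0.26 in promyelocytes, 6.36 ± 0.44 in myelocytes and 5.04 ± 0.45 in granulocytes (SD, n = 3 each).

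Ciita encodes the transactivator of the other genes. Its values were 4.65, 4.83 and 4.97 in LSK cells, 4.50, 4.51 and 4.65 in promyelocytes, 5.53, 4.93 and 4.68 in myelocytes, and 4.91, 4.86 and 4.81 in granulocytes. Its highest value was on myelocyte array 1, the array on which the chain genes and Cd74 were also highest. The means were 4.82 ± 0.16 in LSK cells, 4.55 ± 0.08 in promyelocytes, 5.05 ± 0.43 in myelocytes and 4.86 ± 0.05 in granulocytes (SD, n = 3 each), so no stage averaged far above the dim level of 4.51.

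In promyelocytes relative to LSK cells, the first step between the stages measured, Cd74 fell and the other 5 genes were not called. Cd74 was 4.93-fold lower (log2 difference -2.30 ± 0.60 SE, limma adjusted p = 0.0172). This was 1 of 6 genes called lower and 0 called higher, against 2.75% and 1.61% of all genes, and the median difference of the 6 genes was -1.07 against 0.04 over all genes. H2-Aa, with a difference of -1.54 ± 0.60 (adjusted p = 0.114), and H2-Ab1, with -1.14 ± 0.60 (adjusted p = 0.257), had all promyelocyte arrays below all LSK arrays without passing. H2-Eb1 differed by -0.997 ± 0.52 (adjusted p = 0.252) and H2-DMa by -0.22, with a 95% interval of -0.75 to 0.31. The Cd74 call was lost without LSK array 3 (adjusted p = 0.0675), promyelocyte array 1 (adjusted p = 0.0608) or promyelocyte array 2 (adjusted p = 0.0698). It was also lost with limma's trend and robust options (adjusted p = 0.083). When the fit held these 6 arrays alone, H2-Aa (adjusted p = 0.0135) and H2-Ab1 (adjusted p = 0.0133) were called lower as well.

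Markers of other cells were read at the same step. Of 11 dendritic cell markers 1 was called, Flt3, a receptor that early progenitors also carry, which was lower in promyelocytes (log2 difference -3.77 ± 0.25 SE, limma adjusted p = 8.24e-07). The summed signal of the 11 was 437 to 587 in promyelocytes and 2014 to 2441 in LSK cells, with Xcr1 dim at every stage. Without Flt3 and Tcf4, left out after their values were seen, the other 9 summed to 208 to 256 in promyelocytes and 230 to 263 in LSK cells. The sum of 11 B cell markers was 285 to 394 in promyelocytes and 404 to 769 in LSK cells, 4 of them called lower, with Ms4a1, Cd22, Cr2 and Fcer2a dim at every stage. In the opposite direction, 7 of 8 basophil and eosinophil markers and 6 of 13 monocyte and macrophage markers were called higher in promyelocytes. At this step 1.61% of all genes were called higher and 2.75% lower. The Cx3cr1 call was lost without LSK array 1 or 3 or promyelocyte array 1 or 3 (limma adjusted p 0.0747 to 0.113). The Cpa3 call was lost without LSK array 3 (adjusted p = 0.0595) or promyelocyte array 1 (adjusted p = 0.0515). With limma's trend and robust options Cpa3 (adjusted p = 0.0542) and Prg2 (adjusted p = 0.0537) were not called. The part of the cells of these lists in the class II values was not tested.

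Relative to promyelocytes, myelocytes had more Cd74, H2-Aa and H2-Eb1 and less H2-DMa. Cd74 was 5.02-fold higher (log2 difference 2.33 ± 0.60 SE, limma adjusted p = 0.00541), H2-Aa 3.91-fold higher (1.97 ± 0.60, adjusted p = 0.0175) and H2-Eb1 2.98-fold higher (1.58 ± 0.52, adjusted p = 0.0258). H2-DMa was 2.45-fold lower (-1.29 ± 0.25, adjusted p = 0.000559). These 3 genes called higher compare with 7.61% of all genes, and the 1 called lower with 9.87%. H2-Ab1 differed by 1.21 ± 0.60 (adjusted p = 0.149). Ciita differed by 0.49 ± 0.18 (adjusted p = 0.0474), which is under a fold of 2, with every myelocyte array above every promyelocyte array.

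The arrays of the 3 genes called higher overlapped between the stages, with myelocyte array 3 inside the promyelocyte range for each of them and, for H2-Ab1, below it. The H2-Aa call was lost without promyelocyte array 1 (adjusted p = 0.0548), promyelocyte array 2 (adjusted p = 0.0793), myelocyte array 1 (adjusted p = 0.1) or myelocyte array 2 (adjusted p = 0.0739), and the H2-Eb1 call without the same 4 (adjusted p 0.0663, 0.114, 0.146 and 0.0963 in that order). Both were lost with limma's trend and robust options (adjusted p 0.0817 for H2-Aa and 0.0841 for H2-Eb1). The Cd74 and H2-DMa calls were kept with any single array left out, with Cd74 differences from 1.63, without myelocyte array 1, to 3.26, without myelocyte array 3. The H2-Aa and H2-Eb1 differences were 1.25 and 0.95 without myelocyte array 1 and 2.93 and 2.40 without myelocyte array 3. Without array 3 H2-Ab1 too was called higher (2.24, adjusted p = 5.2e-05).

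**Figure D2:**
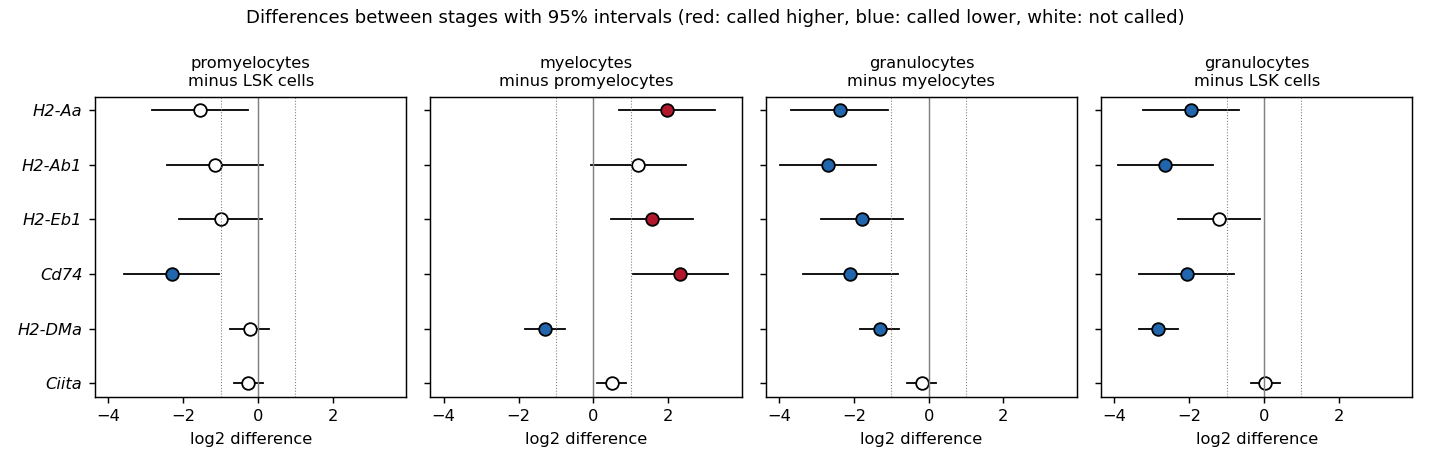
Log2 differences (later stage minus earlier stage) of the 6 genes in 4 pairs of stages, with 95% intervals from limma and dotted lines at a fold of 2. Filled points are called, red higher and blue lower, and white points are not called. In myelocytes against promyelocytes Cd74, H2-Aa and H2-Eb1 lie to the right and H2-DMa to the left, and in granulocytes against myelocytes all but Ciita lie to the left.

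In granulocytes relative to myelocytes, the last step, all the chain genes, Cd74 and H2-DMa fell. H2-Ab1 was 6.50-fold lower (log2 difference -2.70 ± 0.60 SE, limma adjusted p = 0.00369), H2-Aa 5.22-fold lower (-2.38 ± 0.60, adjusted p = 0.00901), Cd74 4.26-fold lower (-2.09 ± 0.60, adjusted p = 0.0188), H2-Eb1 3.42-fold lower (-1.78 ± 0.52, adjusted p = 0.0216) and H2-DMa 2.48-fold lower (-1.31 ± 0.25, adjusted p = 0.00104). This was 5 of 6 genes called lower and 0 called higher, against 5.96% and 2.35% of all genes, and the median of the 6 was -1.93 against 0.09 over all genes. All granulocyte arrays lay below all myelocyte arrays for H2-Ab1, H2-Aa and H2-DMa, but not for Cd74 and H2-Eb1. Ciita differed by -0.19 ± 0.18 (adjusted p = 0.503). This comparison and the one before it share the myelocyte arrays.

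The H2-Ab1, H2-Aa and H2-DMa calls were kept with any single array left out, but with limma's trend and robust options the call was lost for H2-Aa (adjusted p = 0.0557), as for H2-Eb1 (adjusted p = 0.0743) and Cd74 (adjusted p = 0.0824). The size of the H2-Ab1 and H2-Aa differences turned on the myelocyte arrays: without array 1 they were -1.92 and -1.67, and without array 3 they were -3.73 and -3.35. The H2-Eb1 call was lost without myelocyte array 1 (-1.15, adjusted p = 0.107), myelocyte array 2 (adjusted p = 0.0862), granulocyte array 1 (adjusted p = 0.0742) or granulocyte array 3 (adjusted p = 0.0633). The Cd74 call was lost without myelocyte array 1 (-1.39, adjusted p = 0.0935), myelocyte array 2 (adjusted p = 0.0793) or granulocyte array 1 (adjusted p = 0.0958). Without myelocyte array 3 the H2-Eb1 and Cd74 differences were -2.60 and -3.03.

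Across the whole course, in granulocytes relative to LSK cells, 4 of 6 genes were called lower and 0 higher, against 16.5% and 9.59% of all genes. H2-DMa fell most, 7.09-fold (log2 difference -2.82 ± 0.25 SE, limma adjusted p = 9.53e-08), followed by H2-Ab1, 6.22-fold (-2.64 ± 0.60, adjusted p = 0.00163), Cd74, 4.19-fold (-2.07 ± 0.60, adjusted p = 0.00883) and H2-Aa, 3.89-fold (-1.96 ± 0.60, adjusted p = 0.0131). For these 4 genes and for H2-Eb1, which missed the threshold (-1.20 ± 0.52, adjusted p = 0.0653), every granulocyte array lay below every LSK array. Ciita differed by 0.042, with a 95% interval of -0.35 to 0.43. The H2-Aa call was lost without granulocyte array 1 (adjusted p = 0.0573) or with limma's trend and robust options (adjusted p = 0.0577). H2-Eb1 was called lower without myelocyte array 1 (adjusted p = 0.0248) or myelocyte array 3 (adjusted p = 0.00431), which enter this comparison only through the spread. With only the LSK and granulocyte arrays in the fit, H2-Eb1 was also called lower (adjusted p = 0.000395).

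Myelocytes and LSK cells could not be ordered for the chain genes and Cd74. In myelocytes relative to LSK cells 1 of 6 genes was called, H2-DMa, which was 2.85-fold lower (log2 difference -1.51 ± 0.25 SE, limma adjusted p = 0.000125), against 10.8% of all genes called lower and 7.74% called higher. The 95% intervals were -0.86 to 1.71 for H2-Aa, -1.22 to 1.34 for H2-Ab1, -0.52 to 1.68 for H2-Eb1, -1.24 to 1.29 for Cd74 and -0.16 to 0.62 for Ciita. Without myelocyte array 3, H2-Aa (1.39, adjusted p = 0.011), H2-Ab1 (1.10, adjusted p = 0.014) and H2-Eb1 (1.40, adjusted p = 0.00453) were called higher in myelocytes. Without myelocyte array 1 the same differences were -0.29, -0.72 and -0.045.

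Between granulocytes and promyelocytes H2-DMa alone was called, 6.08-fold lower in granulocytes (log2 difference -2.60 ± 0.25 SE, limma adjusted p = 2.28e-07), against 16.3% of all genes called lower and 10.1% called higher. H2-Ab1 differed by -1.49 ± 0.60 and just missed (adjusted p = 0.0507). Without myelocyte array 1 (adjusted p = 0.0125) or myelocyte array 3 (adjusted p = 0.000415) it was called lower. With only the granulocyte and promyelocyte arrays in the fit, H2-Ab1 was also called lower (adjusted p = 0.000123). The intervals were -1.70 to 0.87 for H2-Aa, -1.30 to 0.91 for H2-Eb1, -1.03 to 1.51 for Cd74 and -0.08 to 0.69 for Ciita.

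The spread among the myelocyte arrays was the widest feature of these genes. The highest minus the lowest log2 value was 3.63 for H2-Ab1, 3.36 for H2-Aa, 3.27 for Cd74 and 2.89 for H2-Eb1, against a median of 0.27 over all genes. Of 19937 genes only 3 had a wider myelocyte range than H2-Ab1, 6 than H2-Aa, 7 than Cd74 and 16 than H2-Eb1. H2-DMa (0.87) and Ciita (0.85) spread less, though only 3.64% and 3.96% of all genes had a wider range. Both also fell from array 1 to array 3. In the other stages the 4 genes varied less, by 0.34 to 0.89 in LSK cells, 0.64 to 1.51 in promyelocytes and 0.45 to 1.22 in granulocytes.

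**Figure D3:**
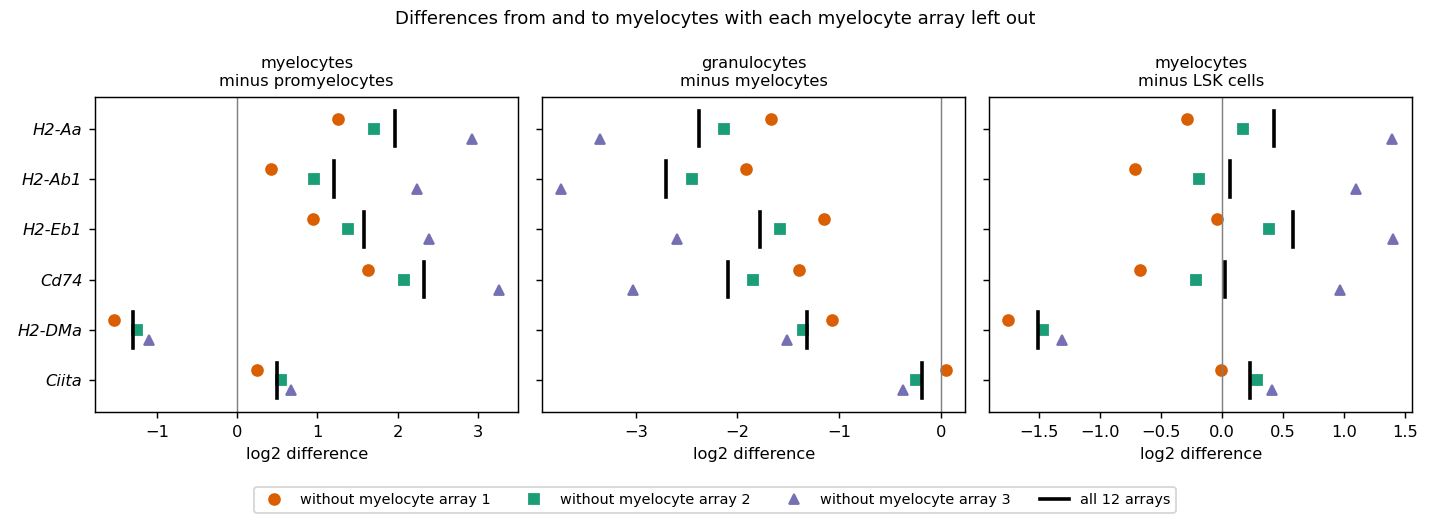
Log2 differences of the 6 genes in 3 pairs of stages with each myelocyte array left out in turn (coloured symbols) and with all 12 arrays (black bars). Without array 1 the chain genes and Cd74 move to the left in myelocytes against promyelocytes and against LSK cells, without array 3 they move to the right, and H2-DMa stays below 0 throughout.

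Among the 20 genes of widest myelocyte range, a list drawn up after the values were seen, 15 were highest on array 1 and lowest on array 3. The 4 class II genes were among these 15, beside Ms4a2 and Fcer1a, which encode chains of the high-affinity IgE receptor of basophils and mast cells, and Cpa3, a protease of the same cells. The rest of the 15 were Alox15, C3ar1, Cd200r3, Il6, Cyp11a1, Padi2, Cd244a and Igkv19-93, an immunoglobulin kappa variable gene with 8.75, 6.74 and 5.77. Fcer1a had 10.12, 8.07 and 6.95 on myelocyte arrays 1, 2 and 3, and Ms4a2 had 9.56, 8.09 and 6.17. A further 4 of the 20 were genes of the sex chromosomes, which followed a different order. Xist had 3.34, 9.74 and 4.30 on the same arrays, and Eif2s3y, a Y chromosome gene, had 8.68, 2.24 and 8.38. Array 2 stood apart there, with the high Xist and low Eif2s3y of female cells. The myelocyte arrays therefore did not all come from mice of 1 sex.

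Marker sums gave the same order of the myelocyte arrays for several cell types. The 6 class II genes summed to 4196, 2184 and 485 on arrays 1, 2 and 3. Basophil and eosinophil markers summed to 7794, 3386 and 1449, and monocyte and macrophage markers to 3256, 2190 and 1173. These sums, over 8 and 13 genes, ordered the arrays as the class II sum did. In the basophil and eosinophil list Mcpt8, Ms4a2, Fcer1a, Cpa3 and Siglecf took that order. Epx (4.62, 5.10 and 4.84), Prg2 (6.55, 7.26 and 6.90) and Prg3 (4.72, 4.98 and 5.09) of that list were lowest on array 1. In the monocyte and macrophage list C1qa, Fcgr1 and Vcam1 were highest on array 2, and the rest took the order of the sum. The 8 late granulocytic genes had the order of the class II sum over a narrower range, with sums of 44971, 41702 and 40525. Dendritic cell markers summed to 612, 456 and 345. Among them Cd209a, a lectin gene of monocyte-derived dendritic cells, had 7.80, 6.64 and 5.57. Itgax, Clec10a and Tcf4 also fell from array 1 to array 3. Zbtb46 (4.84, 4.99 and 5.15) and Ccr7 (4.63, 4.81 and 4.82) ran the other way. Clec9a, Xcr1, Siglech, Batf3 and Flt3 took neither order. B cell markers summed to 254, 252 and 217, close to the 250 to 267 of granulocytes. A list of 8 T and NK cell markers summed to 258, 195 and 172. In it Il7r had 6.87, 5.48 and 4.74. Ncr1, dim at every stage, also fell from array 1 to array 3, Klrb1c, also dim, ran the other way, and the rest took neither order. The sum of 13 MHC class I presentation genes, described below, took the order too, with 12433, 11730 and 10741. The part of the cells of these marker lists in the class II values was not tested.

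On promyelocyte arrays 1, 2 and 3 the class II sum was 691, 570 and 908, highest on array 3. The monocyte and macrophage sum there kept the order of the myelocyte arrays, with 4869, 3022 and 2652, while the basophil and eosinophil sum was highest on array 1 (7030) and lowest on array 2 (1577). The eosinophil peroxidase gene Epx had 9.81, 5.06 and 10.19 on the 3 promyelocyte arrays. In granulocytes relative to myelocytes, 4 of the 8 basophil and eosinophil markers fell (Mcpt8, Fcer1a, Cpa3 and Ms4a2). Of 13 monocyte markers 4 fell and 3 rose, at a step where 5.96% of all genes were called lower and 2.35% higher. Without myelocyte array 3 the 3 that rose were under a fold of 2 (Csf1r 0.73, Adgre1 0.86 and Cd68 0.95), and 1 of those that fell, Cx3cr1, was lost without myelocyte array 1 or 2 or granulocyte array 1 or 2 (adjusted p 0.0545 to 0.0991). The call of Csf1r was also lost without granulocyte array 1 (adjusted p = 0.0605) or 3 (adjusted p = 0.0834). Cd209a fell by 1.23 on the log2 scale, a call lost without any 1 of the myelocyte arrays 1 and 2 or of the 3 granulocyte arrays (adjusted p 0.0604 to 0.129). The basophil and eosinophil sum was 344 to 520 in granulocytes, and the monocyte sum 1912 to 2276.

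**Figure D4:**
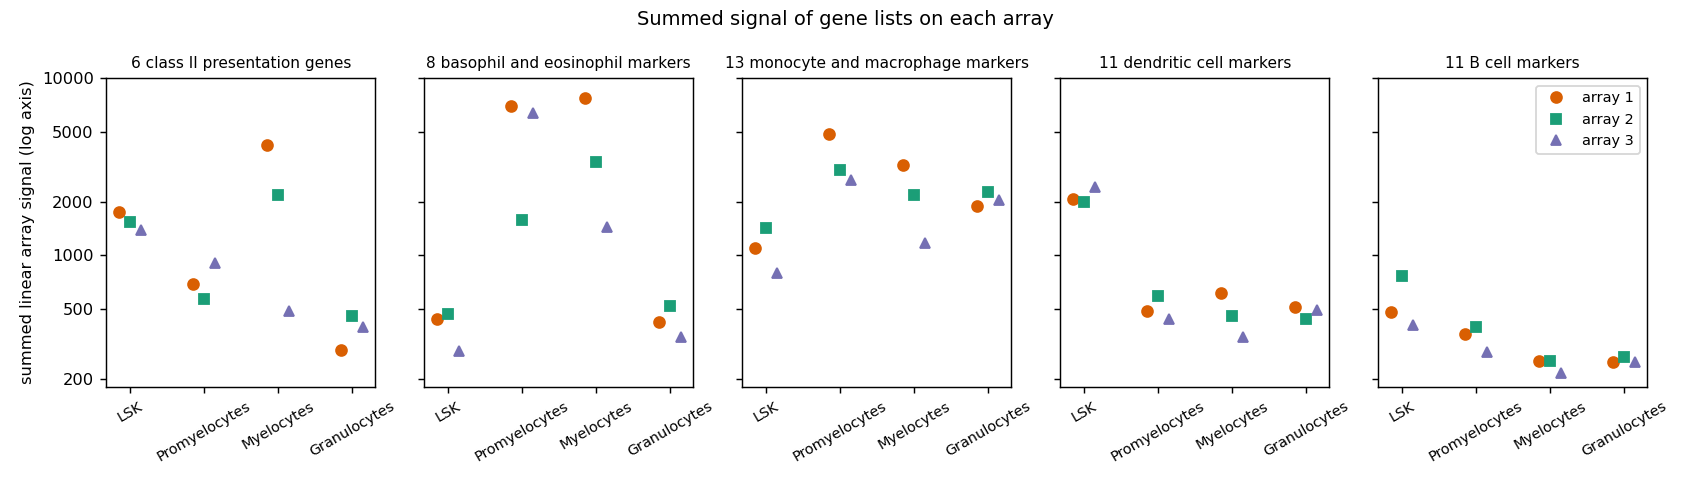
Summed linear signal (log axis) on each array, by stage, of the 6 class II presentation genes and of marker lists for basophils and eosinophils, monocytes and macrophages, dendritic cells and B cells. In myelocytes the first 3 sums are highest on array 1 and lowest on array 3, dendritic cell markers span a narrower range, 345 to 612, and B cell markers lie at 217 to 254.

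The 4 genes also tracked each other over the 12 arrays, which share stage, array and normalization, so the values are descriptions. Pearson's r was 0.984 between H2-Aa and H2-Eb1, 0.962 between H2-Aa and Cd74 and 0.938 between H2-Aa and H2-Ab1. Against the mean of the other measured genes of the list, r was 0.969 for H2-Ab1, 0.954 for H2-Aa, 0.913 for H2-Eb1 and 0.883 for Cd74, and lower for Ciita (0.528) and H2-DMa (0.359). H2-DMa and Ciita had r of -0.20 with each other.

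Of 9894 other genes above the dim level that differed among the stages, the 10 most like the class II mean profile over the 12 arrays were Gpr155 (r = 0.899), Rasal3 (0.872), Gata2 (0.869), Slamf7 (0.865), Jchain (0.863), Faah (0.857), Itga2 (0.819), Rgs1 (0.808) and a pair of immunoglobulin kappa variable genes (0.881 and 0.811). Jchain encodes the joining chain of polymeric immunoglobulin, and its log2 values were 7.03, 6.34 and 6.31 in LSK cells, 3.29, 3.28 and 4.52 in promyelocytes, 8.04, 6.90 and 5.42 in myelocytes, and 4.17, 3.84 and 4.78 in granulocytes. It had the features of the class II chain genes, with array 3 highest in promyelocytes and lowest in myelocytes. Gata2, a transcription factor of progenitors, mast cells and basophils, had 8.53, 8.87 and 9.14 in LSK cells, 7.93, 7.86 and 7.87 in promyelocytes, 9.73, 7.96 and 7.00 in myelocytes, and 5.08, 5.51 and 5.38 in granulocytes.

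Of the other class II genes, H2-Oa and H2-Ob encode the chains of H2-O, an inhibitor of H2-M found mainly in B cells. H2-Ob, whose promoter boxes are shown above, had 8.51, 8.23 and 8.62 in LSK cells, 6.14, 6.68 and 6.27 in promyelocytes, 6.53, 5.67 and 5.02 in myelocytes, and 4.73, 5.00 and 4.99 in granulocytes. It fell in promyelocytes relative to LSK cells (log2 difference -2.09 ± 0.28 SE, limma adjusted p = 0.000145) and was not called in the next step, with a difference of -0.63 in myelocytes relative to promyelocytes (adjusted p = 0.101). Granulocytes differed from LSK cells by -3.54 in H2-Ob (adjusted p = 2.74e-08) and by -1.53 in H2-Oa (adjusted p = 0.00591), the 2 of 4 measured genes of this list called there, against 16.5% of all genes called lower. H2-Oa spread in myelocytes like the chain genes, with 6.96, 5.73 and 4.74. H2-Eb2 and H2-Ea were dim at every stage.

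Of the 7 factors that bind the class II promoter boxes, all measured, limma called 0 in any of the 3 steps between neighbouring stages. At an unadjusted p under 0.05 and any fold, 5 differed in promyelocytes against LSK cells. In myelocytes against promyelocytes 4 did, and in granulocytes against myelocytes 2. Here and in the lists below, the share of all genes at that looser threshold was not counted. Rfx5, a subunit of the RFX complex, was lower in granulocytes than in LSK cells (log2 difference -1.43 ± 0.17 SE, limma adjusted p = 3.21e-06), and Nfyb, a subunit of NF-Y, was higher in myelocytes than in LSK cells (1.31 ± 0.17, adjusted p = 1.36e-05). The partners Rfxap, Rfxank, Nfya, Nfyc and Creb1 were not called in any of the 6 pairs.

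Factors known to act on the Ciita gene moved more, and in different directions. Irf8, a factor of monocyte and dendritic cell fate, had 7.61, 8.28 and 7.22 in LSK cells, 10.08, 9.07 and 9.73 in promyelocytes, 7.13, 6.29 and 6.36 in myelocytes, and 5.69, 5.80 and 5.81 in granulocytes. It rose in promyelocytes relative to LSK cells (log2 difference 1.92 ± 0.29 SE, limma adjusted p = 0.000363) and fell in myelocytes relative to promyelocytes (-3.03 ± 0.29, adjusted p = 4.72e-07). The chain genes and Cd74 averaged lower in promyelocytes and higher in myelocytes at these steps. Irf2 took the other course, lower in promyelocytes than in LSK cells (-1.28, adjusted p = 9.74e-05) and higher in myelocytes than in promyelocytes (1.59, adjusted p = 1.07e-06). Spi1, which encodes PU.1, was higher in myelocytes than in promyelocytes (1.35, adjusted p = 1.19e-05). Between granulocytes and myelocytes limma called 0 of the 7 measured genes, and 4 had an unadjusted p under 0.05 at any fold.

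Genes of peptide supply and class II turnover, 11 in all, were called in both directions. In promyelocytes relative to LSK cells 2 were called higher, against 1.61% of all genes: Ctsz, a cathepsin (log2 difference 1.45 ± 0.22 SE, limma adjusted p = 0.000365), and Ifi30, the lysosomal thiol reductase (1.04 ± 0.31, adjusted p = 0.0343), a call lost without any single LSK array or promyelocyte array 1 (adjusted p 0.0519 to 0.157). In myelocytes relative to promyelocytes Lgmn, the endosomal protease legumain (1.62 ± 0.32, adjusted p = 0.000729), Marchf1 (1.49 ± 0.22, adjusted p = 5.91e-05) and Marchf8 (1.16 ± 0.18, adjusted p = 0.000103) rose, and Ctsz fell (-1.31 ± 0.22, adjusted p = 0.00014), against 7.61% of all genes called higher and 9.87% called lower. Marchf1 encodes a ubiquitin ligase that takes class II from the surface, and it had 5.08, 5.83 and 4.90 in LSK cells, 5.19, 5.53 and 5.73 in promyelocytes, 7.15, 6.99 and 6.78 in myelocytes, and 7.63, 7.98 and 7.47 in granulocytes. Unlike the chain genes it was close on the 3 myelocyte arrays.

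Ctss, the cathepsin that makes the last cuts of the invariant chain, spread over the myelocyte arrays in the order of the class II genes, with 9.65, 8.91 and 7.69, and Lgmn did so with 7.35, 7.25 and 5.78. Ctss was higher in myelocytes than in LSK cells (log2 difference 1.28 ± 0.37 SE, limma adjusted p = 0.0117), a call lost without myelocyte array 1 (0.83, adjusted p = 0.067). In granulocytes relative to myelocytes Ctsd, cathepsin D, rose (1.18 ± 0.26, adjusted p = 0.00362) and Ifi30 fell (-1.29 ± 0.31, adjusted p = 0.00606), and without myelocyte array 1 the Ifi30 difference was -0.96, under a fold of 2. The other 9 genes of the list were not called in that step, in which 5 of the 6 class II genes fell. Over all genes 2.35% were called higher and 5.96% lower in that step.

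Presenting cells stimulate T cells through Cd80, Cd86, Icosl and Cd40 beside class II, and restrain them through Cd274 and Pdcd1lg2, the ligands of PD-1. The first 3 of these 6 genes were called higher in granulocytes than in LSK cells, against 9.59% of all genes. Cd80 had 3.20 to 3.89 in LSK cells, 4.29, 3.35 and 4.57 in promyelocytes, 6.82, 7.16 and 6.88 in myelocytes, and 7.88, 8.14 and 8.38 in granulocytes. It rose at both late steps, by 2.88 in myelocytes relative to promyelocytes, in which it was dim (limma adjusted p = 3.36e-07), and by 1.18 in granulocytes relative to myelocytes (adjusted p = 0.00367). Cd86 rose in granulocytes relative to myelocytes (1.61 ± 0.17, adjusted p = 7.41e-06), and Icosl in myelocytes relative to promyelocytes (1.90 ± 0.15, adjusted p = 7.64e-08). Granulocytes and LSK cells were the pair of stages in which 4 of the 6 class II genes were lower in granulocytes. Cd40, Cd274 and Pdcd1lg2 were not called in any pair.

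Class I genes present peptides made inside the cell. Of 17 listed, 13 had a row of their own. The heavy chain genes H2-K1, H2-D1, H2-T23 and H2-Q7 had none, so H2-Q4 was the only listed heavy chain gene measured. Limma called 0 higher in any of the 6 pairs, where 0 to 4 a pair were higher at an unadjusted p under 0.05 and any fold. In granulocytes relative to LSK cells 6 of the 13 were called lower, against 16.5% of all genes and 4 of the 6 class II genes. The 6 were Psmb10, Erap1, Calr, Pdia3, Canx and H2-Q4. The heavy chain gene H2-Q4 was lower in promyelocytes than in LSK cells (log2 difference -1.20 ± 0.24 SE, limma adjusted p = 0.00279) and in granulocytes than in LSK cells (-1.09 ± 0.24, adjusted p = 0.00105), a call that was under a fold of 2 without LSK array 1 (-0.98) or granulocyte array 1 (-0.83). In myelocytes relative to promyelocytes 5 were lower, against 9.87% of all genes. Among them were the chaperone gene Calr (log2 difference -2.07 ± 0.15 SE, limma adjusted p = 3.64e-08) and the immunoproteasome genes Psmb10 (-1.45 ± 0.20, adjusted p = 2.85e-05) and Psmb8. In granulocytes relative to myelocytes the chaperone gene Canx was lower (-1.55 ± 0.16, adjusted p = 4.11e-06), as were Pdia3 (-1.14), Calr (-1.09) and Erap1 (-1.02), whose differences were under a fold of 2 without granulocyte array 1 for Pdia3 (-0.995) and Erap1 (-0.98), without myelocyte array 1 for Calr (-0.98) and without myelocyte array 2 for Erap1 (-0.97). B2m, the class I light chain gene, Nlrc5, the class I counterpart of Ciita, and Tap1, Tap2 and Psmb9, which lie among the class II genes on chromosome 17, were not called in any pair.

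**Figure D5:**
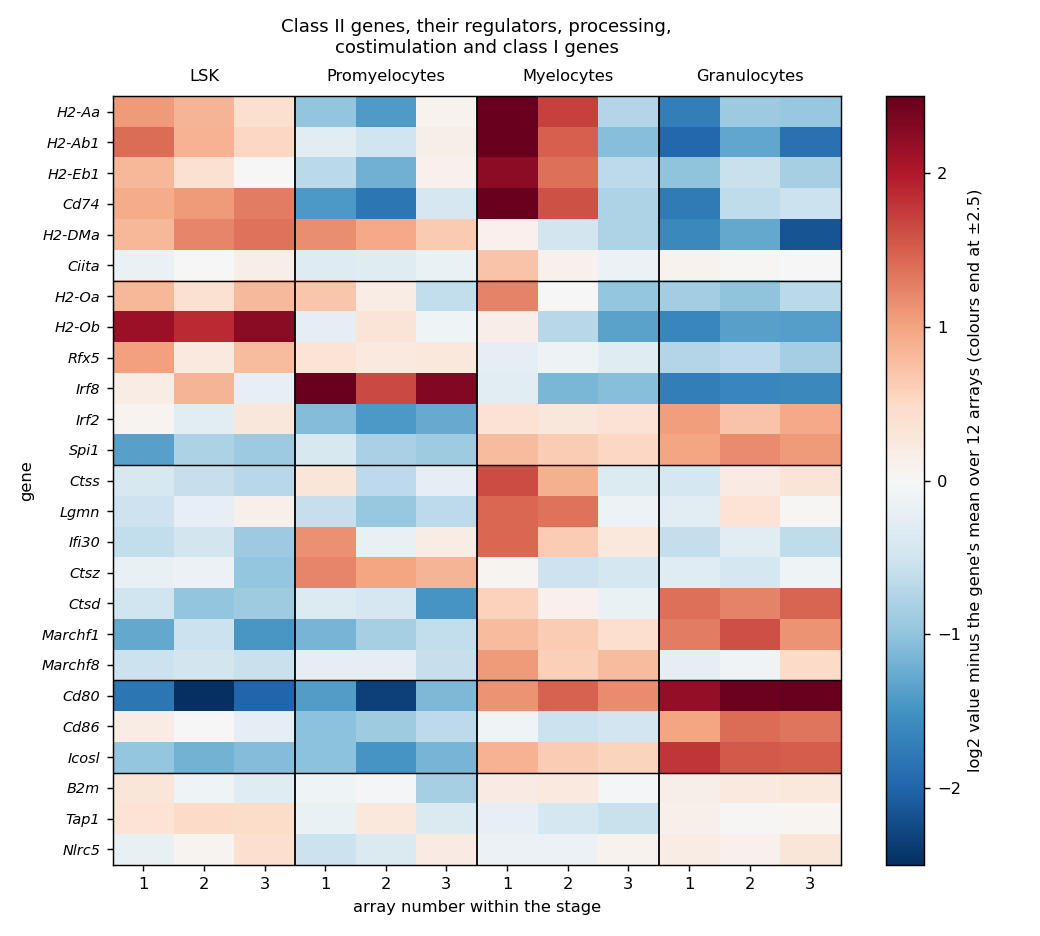
Log2 values of class II genes and of genes around them on the 12 arrays, each gene centred on its own mean, red above and blue below, with colours ending at ±2.5. From top to bottom the blocks hold the 6 measured class II presentation genes, related class II genes with their regulators, peptide supply and turnover genes, costimulators and class I genes. The chain genes and Cd74 are red on myelocyte arrays 1 and 2 and blue on array 3, and Cd80, Cd86 and Icosl are red in granulocytes, where the class II genes are blue or pale.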

How the data were processed

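Total RNA of 12 samples, 3 each of LSK cells, promyelocytes, myelocytes and granulocytes, had been hybridised to 1-colour Affymetrix Mouse Gene ST arrays. The deposited log2 values were made by the authors with justRMA (background correction, quantile normalization and median polish; no version given in the sources used here) and were used without further normalization. Arrays were close in scale, with medians of 4.96 to 5.12, and 0 pairs were identical.

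Gene names came from the array platform's probe annotation: of 34760 rows, 21640 had 1 symbol, 1321 several and 11799 none. Rows with 1 symbol were kept, 21553 of them were matched by identifier to RefSeq with 0 symbols changed, and the row of highest mean was taken per gene, which left 19937 genes. Each of the 6 measured genes has 1 row, and levels of different rows were not compared.

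Stages were compared, later minus earlier, in a single linear model with a mean for each of the 4 stages, fitted to the 12 arrays by limma 3.58.1 (lmFit, then eBayes; R 4.3.3). The spread rests on 8 residual and 7.02 prior degrees of freedom, the median standard deviation within a stage was 0.21, and the number of arrays limits the precision. P-values were adjusted over all genes within each comparison, and the fit was tested on simulated data. The fold of at least 2 follows the study's methods, and unadjusted p was an alternative. All 7 genes are described, and genes of the other lists are named where called, with the largest differences first, or where a role needs them. The members, lists and tests were chosen with earlier results of these data known. Alternatives were centring, normalization, row choice, a filter on dim genes, limma's trend and robust options, the threshold, the arrays in the fit, a replicate block, each array left out and, added after seeing the data, array weights.

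Replicate numbers were checked as pairs by correlating the deviations of same-numbered arrays from their stage means. In myelocytes and promyelocytes all 3 correlations passed 0.1 (0.18, 0.12 and 0.20), so those numbers were treated as possible pairs. This rests on weak correlations alone, since no label says what a number marks, and the main fit held no pairing. In the other 5 pairs of stages they did not all pass. The study's miRNA measurements were not used here.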

Additional observations from a re-analysis of the deposited data

How the results depend on the processing

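All differences whose direction changed under an alternative were uncalled ones. Of the alternatives for single genes, 759 kept direction and call, 28 lost the call, 23 gained it and 18 turned direction. With limma's trend and robust options the genes called were 0 in promyelocytes against LSK cells, 2 in myelocytes against promyelocytes, 2 in granulocytes against myelocytes, 9 of the 36 differences and 3 by the F test. With unadjusted p, 2 genes were called in promyelocytes against LSK cells. With only the compared arrays in the fit, 3 were called there and 2 in myelocytes against promyelocytes. In the main fit all 4 stages share an estimate of the spread, so the myelocyte arrays enter the p-values of pairs without myelocytes. The SE of H2-Aa in promyelocytes against LSK cells was 0.60 in the main fit and 0.33 with only those arrays. The cause of the other changes was not tested. With 1 array left out, the calls ranged over 0 to 3 in promyelocytes against LSK cells, 2 to 5 in myelocytes against promyelocytes, 3 to 5 in granulocytes against myelocytes, 3 to 5 in granulocytes against LSK cells, 12 to 24 of the 36 differences and 4 to 6 by the F test. Turned differences with 1 array left out ranged, in myelocytes against LSK cells, over -0.29 to 1.39 for H2-Aa, -0.72 to 1.10 for H2-Ab1, -0.045 to 1.40 for H2-Eb1, -0.67 to 0.96 for Cd74 and -0.012 to 0.41 for Ciita. In granulocytes against promyelocytes they ranged over -0.74 to 0.012 for H2-Aa, -0.51 to 0.15 for H2-Eb1 and -0.054 to 0.63 for Cd74. For Ciita they were -0.37 to 0.053 in granulocytes against myelocytes and -0.041 to 0.12 in granulocytes against LSK cells. H2-Eb1 in granulocytes against promyelocytes was 0.026 with arrays centred on the 75th percentile and 0.062 with array weights, an alternative chosen after seeing the data. Quantile normalization gave -0.034 for Ciita in granulocytes against LSK cells and -0.039 for Cd74 in myelocytes against LSK cells. Centring on the 75th percentile moved the median of all genes in granulocytes against LSK cells to 0.39, against 0.17 as deposited. The replicate block changed no call in myelocytes against promyelocytes, the comparison whose numbers passed the check on pairs. It gave 17 of the 36 differences against 16. The added one was H2-Ab1 in granulocytes against promyelocytes (adjusted p = 0.0351), where the samples share only a number. Signals near the dim level limit what can be said of Ciita.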
